A study of Mus musculus with 12 samples.

Results

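Ptprz1 encodes a receptor-type protein tyrosine phosphatase of glial cells, and the genes described with it encode its secreted ligands and the chondroitin sulfate matrix in which it sits. The group was a named list of 10 genes, Ptprz1, Ptn, Mdk, Ncan, Bcan, Vcan, Cspg5, Tnc, Tnr and Hapln1, out of 19505 genes measured. Each of the 10 genes was represented by 1 transcript cluster, the set of probes that an array reads as one gene, and all 10 were measured and lay above the lower quartile of every array. Clusters were assigned to the 10 genes by the RefSeq symbol that matched their Entrez identifier.

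The extracellular part of Ptprz1 carries chondroitin sulfate and O-mannosyl glycans, and the glycosyltransferase GnT-IX, the product of Mgat5b, adds a branch to such glycans on it. Pleiotrophin (Ptn) and midkine (Mdk) bind its sugar chains and lower its phosphatase activity, and the receptor restrains the maturation of oligodendrocyte precursors. Around glia, lecticans such as neurocan, brevican and versican join hyaluronan to tenascins, and link protein fastens them to hyaluronan.

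Expression was measured on 12 arrays in 4 groups of 3 biological replicates, all from C57BL/6 mice aged 8 to 12 weeks when the diet began. Wild-type mice were sampled after 0, 3 or 12 weeks of a powdered diet with 0.2% (w/w) cuprizone, a chelator of copper toxic to oligodendrocytes, and GnT-IX-deficient mice after 12 weeks of it. Papain released the cells from white matter, and after a block of Fc receptors beads bound those with GLAST, the glutamate transporter that Slc1a3 encodes. How the deficiency was made was not given in the sources used here, and neither untreated GnT-IX-deficient mice nor age-matched untreated mice were analysed here, so age and diet cannot be told apart over time. RNA came from miRNeasy Mini or NucleoSpin RNA XS columns, and no label ties a sample to either.

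Mgat5b checked the genotype. Values are on the log2 scale after RMA, which sets all arrays to one distribution, and p-values were adjusted over all genes with the Benjamini-Hochberg method. Mgat5b was at 5.72, 5.57 and 5.74 (log2 RMA values of replicates 1, 2 and 3) at 0 weeks, at 5.78, 6.49 and 5.85 at 3 weeks, at 5.96, 5.88 and 5.57 at 12 weeks, and at 3.70, 4.19 and 4.06 in GnT-IX-deficient mice after 12 weeks. All 3 arrays labelled as deficient lay below all 9 wild-type arrays. Against wild-type mice at 12 weeks Mgat5b fell by 1.82 on the log2 scale (limma, SE 0.21, n = 3, adjusted p = 0.00159), and the difference was -1.74 without deficient replicates 1 and 2, when it missed the threshold (adjusted p = 0.101). The deficient values lay near the lower quartiles of the arrays, 3.73 to 3.85, and replicate 1 below them.

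Array medians lay between 5.38 and 5.45, and r between replicate arrays, taken across genes, was 0.974 to 0.985. Markers of astrocytes were present in every group, with all 11 above the array medians, but so were all 10 measured markers of mature oligodendrocytes and all 9 measured markers of oligodendrocyte precursors. The mean of 12 microglial markers went from between 5.21 and 5.81 on the 0-week arrays to between 7.91 and 9.09 on the wild-type 12-week arrays. On the 3-week arrays it was 8.88, 7.01 and 6.54, so replicate 1 stood apart. The mean of 10 choroid plexus markers lay between 4.65 and 6.14 on the wild-type arrays and was 8.43, 7.45 and 5.74 on the GnT-IX-deficient arrays, so deficient replicates 1 and 2 stood apart. In each wild-type group 2 of these 10 markers averaged below the lower quartile, and none did in the deficient group. The mean of 9 ependymal markers was 6.77, 7.88 and 7.38 on the deficient arrays, against 6.19 to 6.92 on the wild-type arrays. Deficient replicate 3, like replicate 2, thus lay above the wild-type arrays in ependymal markers. The cells were thus a mixture, and in such bulk samples fewer cells of a type and less RNA per cell cannot be told apart.

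The link protein gene Hapln1 fell after 3 weeks of cuprizone and in GnT-IX-deficient against untreated cells, the lecticans Bcan and Ncan fell in the latter comparison, and Ptprz1, Ptn and Mdk did not pass in any. After 3 weeks of cuprizone 2 of the 10 genes fell in wild-type cells, Hapln1 and Cspg5, and none rose, where 3.24% of all genes were called (limma, adjusted p under 0.05), 1.63% lower and 1.61% higher. The median of the 10 was -0.37 on the log2 scale and that of all genes -0.017. Groups did not overlap for 7 of the 10 genes, 6 lower and 1 higher at 3 weeks, against 10.5% and 10.8% of all genes. After 12 weeks no gene of the 10 passed (limma, 3 at an unadjusted p under 0.05), where 2.64% of all genes were called, 2.11% higher and 0.523% lower, and 15.1% had such an unadjusted p. Groups did not overlap for 3 of the 10, all lower at 12 weeks, against 9.95% of all genes. Their median was then -0.22, against -0.013 for all genes.

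**Figure D1:**
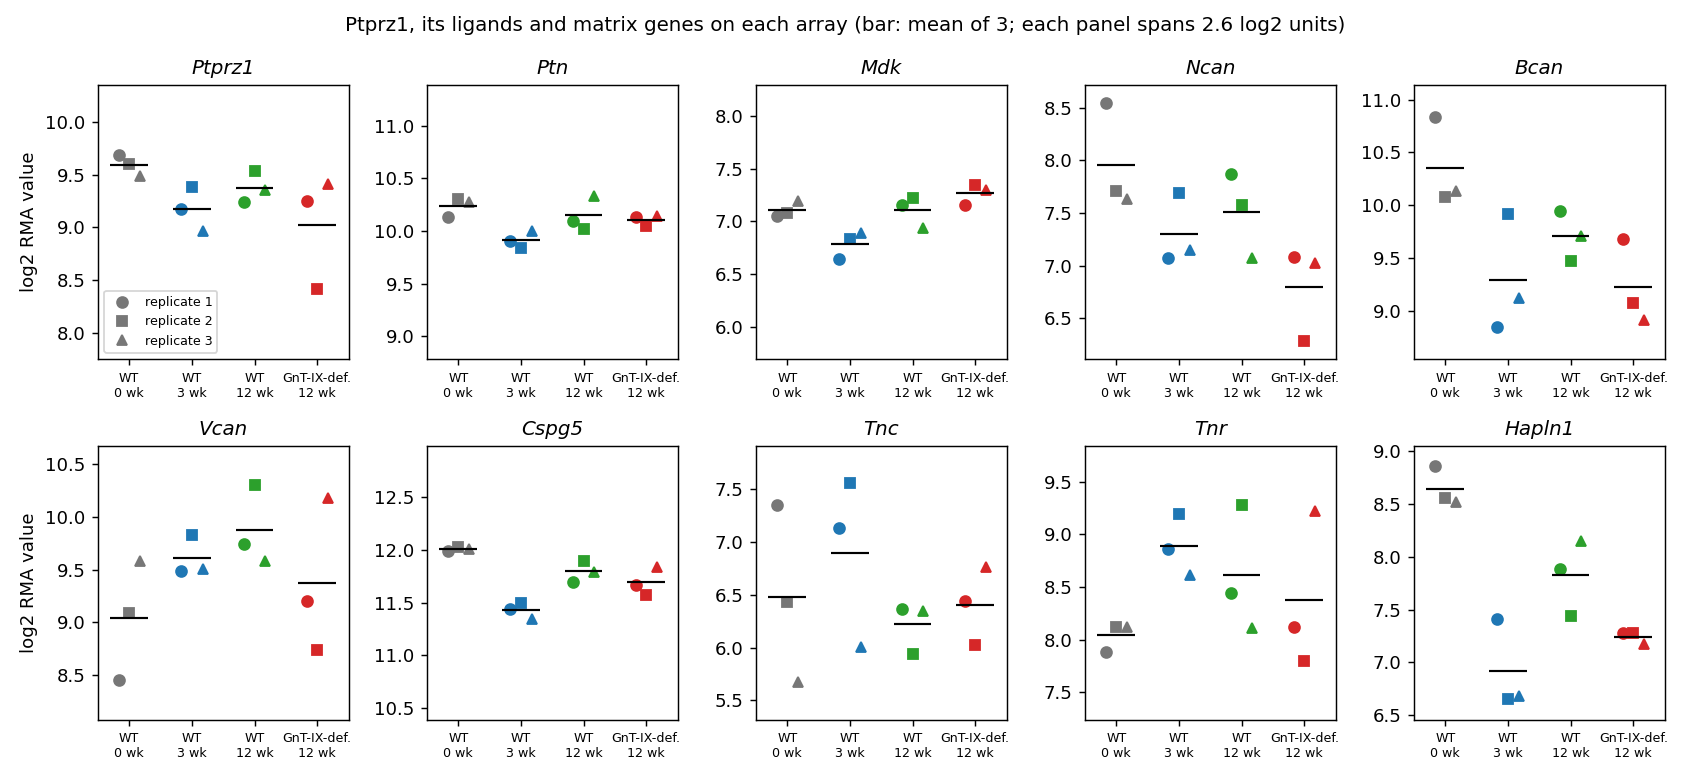
Log2 RMA value (y axis) of each of the 10 genes on each of the 12 arrays, by group, with replicates as circles, squares and triangles and the mean of 3 as a bar; every panel spans the same height. Hapln1 lies at 8.52 to 8.86 at 0 weeks and at 6.65 to 7.41 at 3 weeks, whereas Ptprz1 stays between 8.96 and 9.69 on the wild-type arrays.

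Between 12 and 3 weeks none of the 10 passed either (limma, 2 at an unadjusted p under 0.05), where 0.082% of all genes were called, 0.0256% higher and 0.0564% lower, and 11.4% had an unadjusted p under 0.05. Groups did not overlap for 4 of the 10, all higher at 12 weeks, where 7.83% of all genes were higher and 8.1% lower without overlap. The genotypes at 12 weeks gave no call among the 10 (limma, 2 at an unadjusted p under 0.05), where 0.0256% of all genes were called, 0.0205% higher and 0.00513% lower, and 6.99% had an unadjusted p under 0.05. For 1 of the 10 the genotypes did not overlap, lower in deficient cells, where 5.57% of all genes were lower and 5.27% higher without overlap. GnT-IX-deficient cells after 12 weeks, set against untreated wild-type cells, combined genotype, diet and age in one difference. There 3 of the 10 fell, Hapln1, Ncan and Bcan, where 4.11% of all genes were called, 2.41% higher and 1.7% lower. An unadjusted p under 0.05 was found for 4 of the 10 and for 21.6% of all genes. Groups did not overlap for 5 of the 10, all lower in deficient cells, against 25.1% of all genes in either direction and 13.1% lower. The comparisons with 0 weeks share the 3 untreated arrays, the 12-against-3-week and the genotype comparison share the wild-type 12-week arrays with others, and so none of them repeats another independently.

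**Figure D2:**
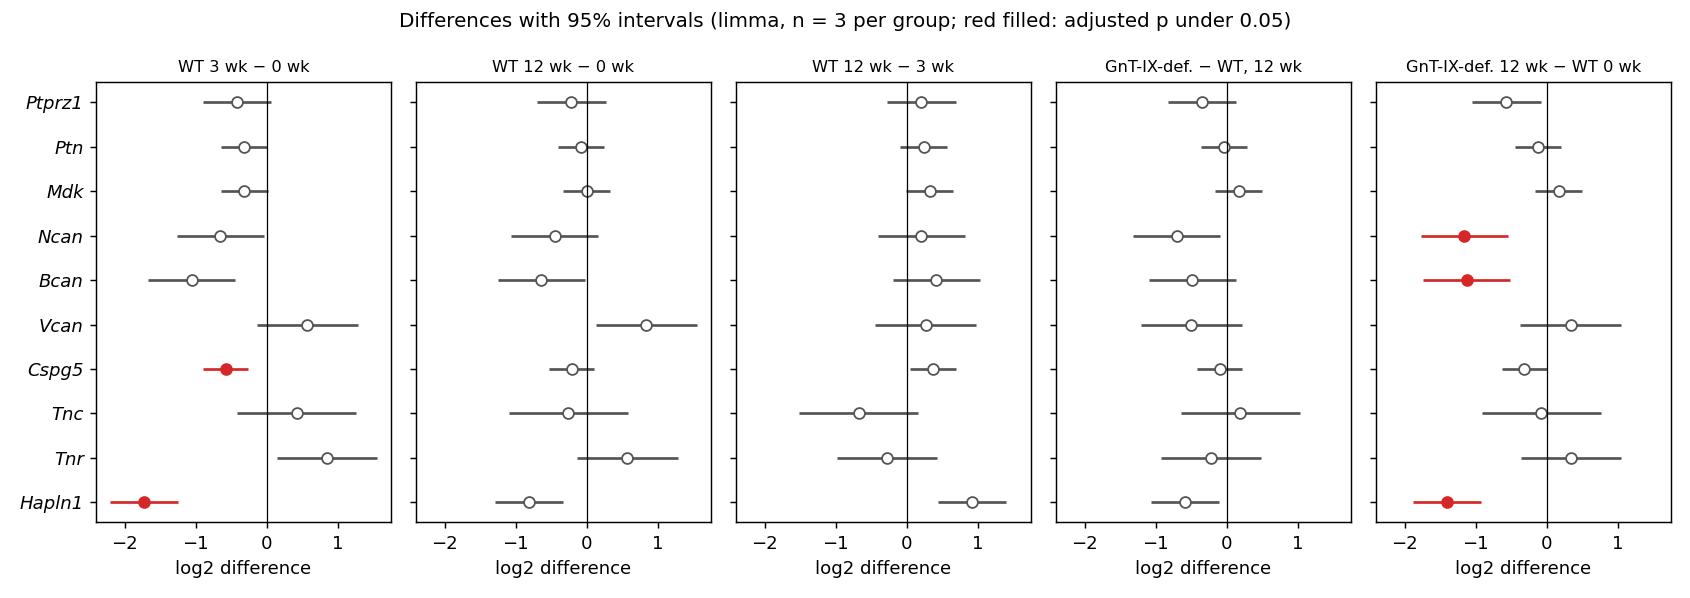
Log2 difference (x axis) of each gene in 5 comparisons, with 95% intervals from the limma fit and n = 3 per group; red filled points passed an adjusted p of 0.05. Hapln1 and Cspg5 passed at 3 weeks, and Hapln1, Ncan and Bcan passed for GnT-IX-deficient cells against untreated wild-type cells.

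Ptprz1 itself was at 9.69, 9.60 and 9.49 on the 0-week arrays, at 9.17, 9.38 and 8.96 at 3 weeks, at 9.24, 9.53 and 9.35 at 12 weeks, and at 9.25, 8.41 and 9.41 in GnT-IX-deficient cells. The 3-week arrays all lay below the 0-week arrays, while the deficient group was wide, with its replicate 2 the lowest of the 12 arrays. In order of means the groups ran from 9.59 ± 0.10 (SD, n = 3) at 0 weeks through 9.37 ± 0.15 at 12 weeks and 9.17 ± 0.21 at 3 weeks to 9.02 ± 0.54 in the deficient cells, and each overlapped the next. The difference at 3 weeks was -0.42 (SE 0.23, 95% interval -0.91 to 0.059, adjusted p = 0.388). In deficient against untreated cells it was -0.57 (SE 0.23, interval -1.05 to -0.088, unadjusted p = 0.0236, adjusted p = 0.157), and those groups did not overlap. Between the genotypes at 12 weeks it was -0.35 (SE 0.23, interval -0.83 to 0.13, adjusted p = 0.785), so the transcript of the protein that GnT-IX modifies did not pass in either direction, and without deficient replicates 1 and 2 the difference was 0.037.

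The ligand gene Ptn, whose product pleiotrophin is a heparin-binding growth factor, was at 10.13, 10.30 and 10.27 at 0 weeks, at 9.90, 9.84 and 10.00 at 3 weeks, at 10.09, 10.02 and 10.33 at 12 weeks, and at 10.13, 10.05 and 10.14 in deficient cells. All 3-week arrays lay below every other array, and the difference from 0 weeks was -0.32 (SE 0.15, adjusted p = 0.316). Mdk, the gene of the related growth factor midkine, differed by the same amount, -0.32 (SE 0.15, adjusted p = 0.328), from 7.05 to 7.19 at 0 weeks to 6.64 to 6.89 at 3 weeks. At 12 weeks Mdk lay at 6.94 to 7.22 and its mean equalled that at 0 weeks, 7.11. In deficient cells it lay at 7.16 to 7.35, the highest mean of the 4 groups, though that group overlapped the 0-week and 12-week arrays. The 95% interval of the genotype difference was -0.17 to 0.49 for Mdk and -0.36 to 0.28 for Ptn.

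Hapln1 encodes the link protein that locks lecticans onto hyaluronan. It was at 8.86, 8.56 and 8.52 at 0 weeks, at 7.41, 6.65 and 6.68 at 3 weeks, at 7.89, 7.44 and 8.15 at 12 weeks, and at 7.28, 7.28 and 7.17 in deficient cells. The untreated arrays were above all others, the 12-week wild-type arrays came next, and the 3-week and deficient arrays overlapped at the bottom. At 3 weeks Hapln1 fell by 1.73 (SE 0.22, 3.33-fold, adjusted p = 0.00119), a call that was kept under each of the 16 alternatives run, with adjusted p of 0.000614 to 0.0103.

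After 12 weeks the difference of Hapln1 from untreated cells was -0.82, which missed the threshold (SE 0.22, adjusted p = 0.0692) and passed with array weights (-0.87, adjusted p = 0.0296). Its 12-week arrays lay above the 3-week arrays by 0.91 (SE 0.22, interval 0.44 to 1.39, adjusted p = 0.123), and this passed once 3-week replicate 1 was left out (1.16, adjusted p = 0.0237). All deficient Hapln1 values lay below the wild-type 12-week values, with a difference of -0.58 (SE 0.22, interval -1.06 to -0.11, unadjusted p = 0.0199, adjusted p = 0.627). Of the 10 genes it was the one whose genotype groups did not overlap, where 10.8% of all genes did not. Against untreated wild-type cells Hapln1 fell in deficient cells, from 8.65 ± 0.19 to 7.24 ± 0.064 (SD, n = 3, 95% interval of the difference -1.88 to -0.93, adjusted p = 0.00586), and the difference was -1.48 without deficient replicates 1 and 2, when it missed the threshold (adjusted p = 0.0572).

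Cspg5 encodes neuroglycan C, a transmembrane chondroitin sulfate proteoglycan. Cspg5 was at 11.99, 12.03 and 12.01 at 0 weeks, at 11.44, 11.50 and 11.35 at 3 weeks, at 11.70, 11.90 and 11.79 at 12 weeks, and at 11.67, 11.57 and 11.84 in deficient cells. Untreated arrays were highest, 3-week arrays lowest, and the wild-type and deficient 12-week arrays overlapped between them. Cspg5 fell by 0.58 at 3 weeks (SE 0.15, 1.49-fold, adjusted p = 0.0476), close to the threshold. The call was lost without any 1 of the 3 untreated arrays (adjusted p = 0.133, 0.145 and 0.107 without replicates 1, 2 and 3) or of the 3-week arrays (0.134, 0.0658 and 0.139). It was lost too with quantile normalization again (-0.47, adjusted p = 0.112) and in a fit of the 6 arrays compared (0.0824). At 12 weeks its difference from 0 weeks was -0.21 (SE 0.15, adjusted p = 0.566).

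Brevican, from Bcan, is the lectican of the adult brain that astrocytes secrete. Bcan was at 10.84, 10.08 and 10.13 at 0 weeks, at 8.84, 9.92 and 9.12 at 3 weeks, at 9.94, 9.47 and 9.71 at 12 weeks, and at 9.68, 9.07 and 8.91 in deficient cells. Every treated array of either genotype lay below every untreated one, and the treated groups overlapped each other.

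The difference of Bcan at 3 weeks, -1.06 (SE 0.29, 2.08-fold, adjusted p = 0.0590), narrowly missed the threshold, and passed without 3-week replicate 2 (-1.37, adjusted p = 0.0171), with array weights (0.0295), with median centring (0.0490) and without the dimmest genes (0.0494). Bcan fell by 1.13 in deficient against untreated wild-type cells (SE 0.29, adjusted p = 0.0406). That call was lost without untreated replicate 1 or 2 (0.180 and 0.0805), without deficient replicate 2 or 3 (0.135 and 0.131), or without deficient replicates 1 and 2 together (0.0901).

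Neurocan, from Ncan, is the lectican most abundant in the developing brain. Ncan was at 8.54, 7.71 and 7.63 at 0 weeks, at 7.07, 7.69 and 7.15 at 3 weeks, at 7.87, 7.58 and 7.07 at 12 weeks, and at 7.08, 6.29 and 7.03 in deficient cells. Untreated replicate 1 was the highest and deficient replicate 2 the lowest of the 12 arrays, and each group overlapped its neighbours in the order of means. Ncan fell by 1.16 in deficient against untreated wild-type cells (SE 0.29, 2.24-fold, adjusted p = 0.0380), a call lost without untreated replicate 1 or 2 (0.171 and 0.0801), deficient replicate 2 or 3 (0.149 and 0.0699), or deficient replicates 1 and 2 together (0.233). Against wild-type cells at 12 weeks the difference was -0.71 (SE 0.29, interval -1.32 to -0.092, unadjusted p = 0.0269, adjusted p = 0.652).

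Versican, from Vcan, is a lectican that oligodendrocyte precursors also make. The mean of Vcan was lowest in untreated cells. Its values there were 8.45, 9.09 and 9.58, against 9.49, 9.83 and 9.51 at 3 weeks, 9.74, 10.30 and 9.58 at 12 weeks, and 9.20, 8.74 and 10.18 in deficient cells. The groups overlapped throughout, since untreated replicate 3 reached the treated arrays. Its differences from untreated cells were 0.57 (SE 0.33, adjusted p = 0.441) at 3 weeks and 0.83 (SE 0.33, interval 0.12 to 1.54, adjusted p = 0.242) at 12 weeks in wild-type cells. Between the genotypes the value was -0.50 (SE 0.33, interval -1.21 to 0.21), and 0.31 without deficient replicates 1 and 2.

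Tenascin-R, from Tnr, is an oligomeric glycoprotein of oligodendrocytes and some neurons that binds lecticans and Ptprz1. Tnr was at 7.88, 8.12 and 8.12 at 0 weeks, at 8.86, 9.19 and 8.61 at 3 weeks, at 8.44, 9.28 and 8.11 at 12 weeks, and at 8.12, 7.80 and 9.22 in deficient cells. It was the one gene of the 10 whose 3-week arrays all lay above its untreated arrays. That difference was 0.85 (SE 0.33, interval 0.14 to 1.55, adjusted p = 0.206) and passed in a fit of the 6 arrays compared (0.0463). Tenascin-C, from Tnc, is the tenascin of developing and injured brain, and it was at 7.35, 6.43 and 5.67 at 0 weeks and at 7.13, 7.56 and 6.01 at 3 weeks. Its SD was 0.84 and 0.80 in these groups. At 12 weeks Tnc lay at 5.94 to 6.37 in wild-type and at 6.02 to 6.76 in deficient cells. No group of Tnc was separate from its neighbours, and the interval of the 3-week difference ran from -0.42 to 1.26.

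In both 12-week groups Vcan and Tnr shared their highest array with the mean of the precursor markers, though not with each marker: Cspg4 (10.64, 10.26 and 9.24) and Olig2 (9.40, 9.26 and 8.63) were highest on wild-type 12-week replicate 1. Replicate 2 was the highest wild-type 12-week array for Vcan (10.30), for Tnr (9.28) and for the mean of the 9 precursor markers (9.03). Replicate 3 was the highest deficient array for all of them, at 10.18, 9.22 and 8.73. Ptprz1 (9.53 and 9.41) and Cspg5 (11.90 and 11.84) were also highest on these wild-type and deficient arrays, so the trait was not particular to Vcan and Tnr. The mean of the astrocyte markers was highest on other arrays, wild-type 12-week replicate 3 (9.38) and deficient replicate 1 (9.25). At 3 weeks, however, replicate 2 was highest for Vcan (9.83), Tnr (9.19), Ptprz1 (9.38) and Cspg5 (11.50). It was also highest there for the precursor mean (9.09) and the astrocyte mean (9.05), so these lists could not be told apart in that group. The mean of the precursor markers lay between 8.13 and 8.49 at 0 weeks, between 8.88 and 9.09 at 3 weeks, between 8.18 and 9.03 at 12 weeks and between 8.00 and 8.73 in deficient cells. None of the 9 precursor markers passed in any comparison, none lay below the lower quartile of the arrays, and their median difference from untreated cells was 0.72 at 3 weeks and 0.36 at 12 weeks. In deficient against untreated cells that median was -0.080, where Vcan was at 0.33 and Tnr at 0.34, and between the genotypes it was -0.33. Of 11 neuron markers 2 rose at 3 weeks, Gad1 from a mean of 5.74 to 7.47 (adjusted p = 0.0165) and Snap25 from 7.67 to 8.87 (adjusted p = 0.0334), with a list median of 0.45 and list means of 5.95 to 6.53 at 0 weeks and 6.17 to 6.85 at 3 weeks. The part of precursor cells or neurons in the values of Vcan, Tnr, Ptprz1 and Cspg5 was not tested.

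Astrocyte and microglial markers differed between the same groups. The mean of 11 astrocyte markers lay between 9.37 and 9.77 at 0 weeks, between 8.66 and 9.05 at 3 weeks, between 8.87 and 9.38 at 12 weeks and between 8.54 and 9.25 in deficient cells. At 3 weeks 6 of the 11 fell, 1 rose and the median was -0.98. At 12 weeks in wild-type cells 1 fell, 1 rose and the median was -0.61. In deficient against untreated cells 6 fell, 1 rose and the median was -0.73. Slc1a3, the antigen of the selection, fell by 1.35 at 3 weeks (limma, SE 0.27, adjusted p = 0.0150). At 12 weeks its difference in wild-type cells was -1.05, which missed the threshold (adjusted p = 0.0546). In deficient against untreated cells Slc1a3 fell by 1.08 (adjusted p = 0.0396). Of 12 microglial markers 8 rose at 3 weeks, 10 at 12 weeks and 9 in deficient against untreated cells. In the last comparison, where Hapln1, Ncan and Bcan fell, 3 of 10 endothelial (median 0.81), 3 of 10 choroid plexus (1.94) and 3 of 9 ependymal markers (0.73) also rose. Endothelial markers rose in wild-type cells at 12 weeks too, 4 of 10 with a median of 0.99, and no choroid plexus or ependymal marker passed. None of the 10 genes described here passed in that comparison. Hapln1 (-0.82), Bcan (-0.64) and Cspg5 (-0.21) nevertheless lay below the untreated arrays there without overlap, and 0 of the 10 lay above without overlap. The part of the cell mixture in the values of Hapln1, Bcan, Ncan and Cspg5 was not tested.

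**Figure D3:**
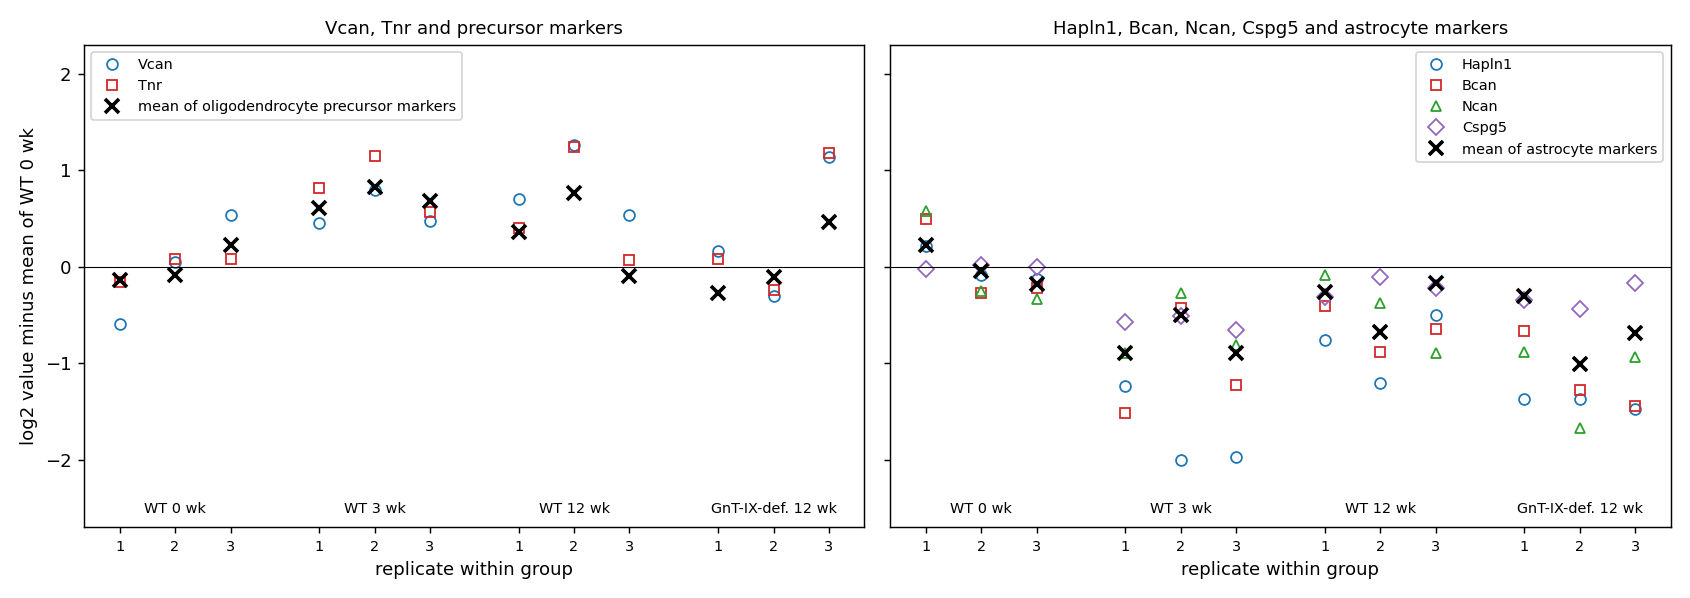
Log2 values minus the mean of the 3 wild-type 0-week arrays (y axis), for each replicate of each group (x axis). Left, Vcan, Tnr and the mean of 9 oligodendrocyte precursor markers (crosses); right, Hapln1, Bcan, Ncan, Cspg5 and the mean of 11 astrocyte markers (crosses), with Hapln1 the lowest gene on 3-week replicates 2 and 3.

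To show the DNA before these genes, RefSeq promoter windows of build GRCm38.p6 (250 bases before the annotated start to 50 after it) were matched by symbol for 8 of the 10 genes, all but Mdk and Cspg5. Printed here are the bases of such windows that lie upstream of the annotated gene, for the gene that fell most, a lectican, the tenascin whose 3-week arrays all lay above the untreated ones, and the receptor. They are chr13:89540386-89540528 (plus strand) for Hapln1, chr8:70120864-70121094 (minus strand) for Ncan, chr1:159523519-159523728 (plus strand) for Tnr and chr6:22875252-22875314 (plus strand) for Ptprz1, each 5′ to 3′ on the gene's strand. Capitals mark matches, on either strand, to any of the motifs that follow. The letters ACAANG are a core bound by SOX factors, and TTGGC is one arm of the site of NFI factors. A GC box was searched as GGGCGG. For the TATA box the letters were TATAAA. Sites of AP-1 were searched as TGANTCA. The G-box was searched as CACGTG.
Hapln1: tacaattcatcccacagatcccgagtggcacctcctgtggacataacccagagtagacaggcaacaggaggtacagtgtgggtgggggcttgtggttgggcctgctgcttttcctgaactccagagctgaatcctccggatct
Ncan: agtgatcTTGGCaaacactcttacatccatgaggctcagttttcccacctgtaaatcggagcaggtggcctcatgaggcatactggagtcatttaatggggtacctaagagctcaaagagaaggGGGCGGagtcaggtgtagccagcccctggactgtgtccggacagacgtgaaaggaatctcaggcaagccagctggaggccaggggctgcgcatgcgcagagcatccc
Tnr: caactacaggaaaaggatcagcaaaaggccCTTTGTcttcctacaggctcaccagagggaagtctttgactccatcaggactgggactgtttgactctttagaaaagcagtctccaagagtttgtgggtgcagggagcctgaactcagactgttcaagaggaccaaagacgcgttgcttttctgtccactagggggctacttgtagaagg
Ptprz1: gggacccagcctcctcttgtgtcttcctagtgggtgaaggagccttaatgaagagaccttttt
Over the whole 300-base windows, ACAANG was found at position -73 of Hapln1, -220 of Tnr and -32 of Bcan, counted from the start, and in 41.2% of all 32851 windows. TTGGC was found at -243 of Ncan and in 1 of the 2 windows of Tnc, and in 46.7% of all windows. GC boxes were in windows of 5 of the 8 genes and in 35.7% of all windows, and the TATA box in those of 2 of 8 and in 13.6%; the 2 windows of Tnc overlap and share both matches. None of the 9 windows held the AP-1 or G-box letters, found in 7.81% and 7.15% of all. Of the genes that fell, Cspg5 had no window, and no motif was shared by all of the others, Hapln1, Ncan and Bcan. A match is a description of the letters only.

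Other genes of this biology were followed in 7 lists with 111 distinct genes measured. At 3 weeks 7 of these passed (6.31%, against 3.24% of all genes), and at 12 weeks 3 (2.7%, against 2.64%). Between the genotypes 1 passed (0.901%, against 0.0256%), and it was Mgat5b, the gene of GnT-IX itself. That share therefore says nothing about the other genes of the lists, none of which passed there. Of 21 further matrix genes 1 rose at 3 weeks, Cd44, the hyaluronan receptor, by 1.99 (SE 0.33, adjusted p = 0.00478), and the list median was 0.080. Cd44 averaged 3.96 at 0 weeks, near the lower quartile of the arrays, and 5.94 at 3 weeks, and kept its call under each of the 16 alternatives. Of 13 adhesion partners and relatives of Ptprz1, L1cam rose by 1.57 (SE 0.24, adjusted p = 0.00273), with its call kept in all 16, and Nrcam fell by 0.80 (SE 0.19, adjusted p = 0.0288). L1cam and Nrcam encode neural adhesion molecules of the immunoglobulin family, and the part of the neuron markers that rose at 3 weeks was not tested for them. The Nrcam call ended without 0-week replicate 1, 2 or 3 (adjusted p = 0.122, 0.0959 and 0.0541) or 3-week replicate 1 or 3 (0.111 and 0.0631).

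Of 18 further receptors and binding partners of pleiotrophin and midkine 1 rose at 3 weeks, Ncl, which encodes the nucleolar protein nucleolin, by 0.82 (SE 0.16, adjusted p = 0.0143). It rose by 0.67 at 12 weeks (adjusted p = 0.0410). The first call ended without 0-week replicate 1 or 2 or 3-week replicate 1 (adjusted p = 0.0751, 0.0612 and 0.0693). The second ended without any 1 of the 6 arrays compared (0.174, 0.160 and 0.0515 for 0-week replicates 1 to 3, and 0.0759, 0.180 and 0.0953 for 12-week replicates 1 to 3). None of 11 reported substrates of Ptprz1 passed in any of the 5 comparisons, and their medians lay between -0.25 and -0.0033.

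Chondroitin sulfate synthesis, which makes the chains on these core proteins, had no call among 21 genes at 3 weeks and 1 at 12 weeks. The latter was Chst15, a sulfotransferase of the chain, which rose by 0.99 (SE 0.24, adjusted p = 0.0372). That call ended without 0-week replicate 1 or 2 (0.189 and 0.0986) or 12-week replicate 1 or 2 (0.107 and 0.204). Among 14 enzymes that cut the matrix, Adamts1, a secreted protease of lecticans, rose by 1.14 at 3 weeks (SE 0.24, adjusted p = 0.0204), and not without 0-week replicate 1 (0.106) or 3-week replicate 3 (0.0733). Adamts4, the main protease of brevican, fell by 1.32 at 12 weeks (SE 0.29, adjusted p = 0.0251), and not without 0-week replicate 1 or 2 (0.0920 and 0.117) or 12-week replicate 2 or 3 (0.109 and 0.0985). In the same comparison 1 of 10 mature oligodendrocyte markers fell, Mag, by 0.93 (adjusted p = 0.0374), the list median was -0.74 and the list mean went from 9.67 ± 0.18 to 8.98 ± 0.41 (SD, n = 3), and their part in the value of Adamts4 was not tested.

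O-mannosyl and HNK-1 glycan synthesis includes Mgat5b and was measured through 14 genes. At 3 weeks 2 fell, Fut9, a fucosyltransferase, by 0.82 (SE 0.18, adjusted p = 0.0207) and Chst10, the HNK-1 sulfotransferase, by 1.02 (SE 0.23, adjusted p = 0.0229). Fut9 missed the threshold without 0-week replicate 1 or 2 (0.107 and 0.0597) or 3-week replicate 1 or 3 (0.0904 and 0.0615). Chst10 missed it without 0-week replicate 1, 2 or 3 (0.0891, 0.0502 and 0.0809) or 3-week replicate 1 or 2 (0.103 and 0.0565). Between the genotypes Mgat5b was the one gene of all 7 lists that passed, and between 12 and 3 weeks no gene of the lists did. The 3-week medians were -0.14 for receptors and binding partners, -0.070 for adhesion partners, 0.023 for chondroitin sulfate synthesis, -0.0050 for the proteases and -0.055 for these glycan genes, against -0.017 for all genes.

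**Figure D4:**
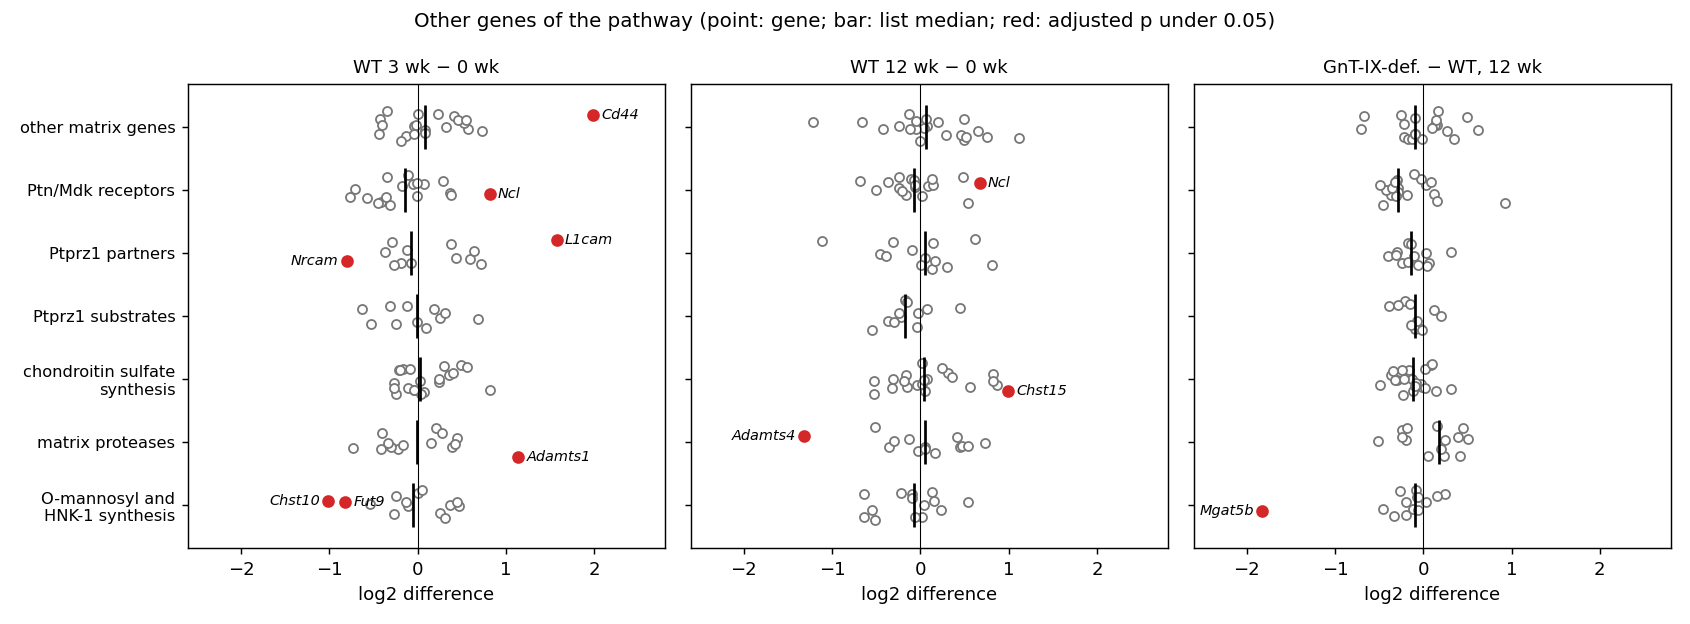
Log2 difference (x axis) of the genes of 7 lists (rows) in 3 comparisons; a point is a gene, the bar the list median, and red named points passed an adjusted p of 0.05. Most genes lie within 1 log2 unit of 0, and Mgat5b is the one red point between the genotypes.

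In deficient against untreated wild-type cells 6 of the 111 genes of the lists passed (5.41%, against 4.11% of all genes). This count includes Mgat5b, the gene of GnT-IX itself, so the share is not a result about the other genes alone. Mgat5b fell by 1.69, Cntn2, a contactin of axons and glia, fell by 1.22 and Pomt2, an O-mannosyltransferase that starts the glycan, fell by 0.83, while Chst15 rose by 1.09, Ncl by 0.83 and Dcn, the small proteoglycan decorin, by 1.38. Of these, Mgat5b alone kept its call without each single array. Each of the others missed it without 0-week replicate 1 or 2 (adjusted p = 0.198 and 0.0923 for Dcn, 0.161 and 0.124 for Cntn2, 0.160 and 0.107 for Pomt2, 0.119 and 0.0636 for Chst15, 0.0760 and 0.0650 for Ncl). They missed it too without deficient replicate 3 (0.144, 0.0784, 0.0968, 0.0656 and 0.0549 in the same order). Without deficient replicate 2 Dcn (0.0906), Cntn2 (0.0879), Pomt2 (0.0715) and Chst15 (0.0656) missed it, without deficient replicate 1 Dcn (0.0728), Cntn2 (0.0737) and Pomt2 (0.0601), and without 0-week replicate 3 Dcn (0.0582).

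The genes most like Ptprz1 over the 12 arrays, among 14627 genes brighter than the lower quartile, were Kank1 (Pearson r = 0.917), Itpr2 (0.906), Zfp871 (0.898), Gpr146 (0.894) and Scara5 (0.893). These values are a description, since the arrays fall into 4 groups and the genes were picked for their likeness. Over deviations from the group means the values were 0.897, 0.866, 0.881, 0.828 and 0.833, so much of the likeness lay between replicates. Ptprz1 varied most within the deficient group (SD 0.54, against 0.10 to 0.21 in the wild-type groups), where replicate 2 was lowest at 8.41. All values over deviations given here therefore weigh that group, and that array, most. Of the other 9 genes described here, Ncan came closest to Ptprz1, at place 73 (0.794), then Cspg5 at place 378 (0.683) and Bcan at place 755 (0.616), and Mdk was least like it (-0.115). Over deviations from the group means that order differed, with Cspg5 at 0.827, Tnr at 0.704, Ncan at 0.622, Vcan at 0.574, Tnc at 0.538 and Bcan at 0.24.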

How the data were processed

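The deposited series table holds log2 values for 22206 transcript clusters on 12 arrays, which the authors made with Affymetrix Expression Console 1.4 and RMA, per the submitters' processing notes; the array annotation's genome build was not given in the sources used here. RMA subtracts background, sets all arrays to one distribution and summarises probes, so values are relative to the whole array. The platform annotation gave 19572 clusters 1 gene symbol, all matched to RefSeq through Entrez identifiers, and 2634 unnamed clusters were left out. For 55 genes with several clusters the brightest was kept, leaving 19505 genes.

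One mean per group was fitted to all 12 arrays with limma 3.58.1 (lmFit and eBayes, R 4.3.3, 8 residual degrees of freedom). Tests were two-sided with Benjamini-Hochberg adjustment over all 19505 genes and a threshold of 0.05. The script was tested on simulated data. The labels call the arrays biological replicates, and their number limits the precision. The genes named are the 10 members, Mgat5b, Slc1a3, up to 4 called genes of each pathway list in a comparison (smallest adjusted p first) and the 5 genes most like Ptprz1. Members and lists were chosen with earlier results of these data known. Alternatives were median centring, quantile normalization again, a filter on the dimmest 30% of genes, the mean of a gene's clusters, all clusters, trend and robust variance, array weights, the 6 arrays compared, a replicate block, a minimum fold of 1.2 and leaving out each array. Leaving out deficient replicates 1 and 2 together was chosen after seeing the data.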

Additional observations from a re-analysis of the deposited data

How the results depend on the processing

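Across the alternatives Hapln1 kept its fall at 3 weeks in all 16, and none of the 10 genes passed between the genotypes in any of 17. At 3 weeks the count of members called went from 2 to 1 with quantile normalization again, with the replicate number as a block and with a minimum fold of 1.2, and was 1 to 2 when single arrays were left out. It went to 3 with median centring, without the dimmest 30% of genes and with array weights, each of which added Bcan. At 12 weeks it went from 0 to 1 with array weights and stayed at 0 without single arrays. Between 12 and 3 weeks it was 0 to 1 without single arrays. For deficient against untreated cells it went from 3 to 1 with the minimum fold, to 0 without deficient replicates 1 and 2, and was 1 to 3 without single arrays; the lone remaining array was assumed to vary like the other groups. The cause of these moves was not tested, beyond the fewer arrays or the stricter hypothesis that the alternative itself sets.

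Signs turned for small differences that had not passed. Between the genotypes without deficient replicates 1 and 2, Ptprz1 was at 0.037, Vcan at 0.31, Cspg5 at 0.043 and Tnr at 0.61. Without single arrays Tnr ran from -0.65 to 0.11 (above 0 without wild-type 12-week replicate 2, and at 0.06 without deficient replicate 2) and Ptn from -0.10 to 0.052. Against untreated cells Tnc ran from -0.67 to 0.17 at 12 weeks and from -0.48 to 0.36 in deficient cells, with 0.12 without deficient replicate 2, and was at 0.28 without deficient replicates 1 and 2. In deficient against untreated cells Vcan ran from -0.070 to 0.65 and Tnr from -0.080 to 0.63, both below 0 without deficient replicate 3. The cause was not tested.

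Counts over all genes moved more. At 3 weeks 632 became 172 with the minimum fold and 192 to 643 without single arrays. At 12 weeks 514 became 919 with array weights, 162 with the minimum fold and 77 to 504 without single arrays. Between 12 and 3 weeks 16 became 9 without the dimmest genes or with 6 arrays, 30 with trend and robust variance, 33 with array weights, 0 with the minimum fold and 0 to 146 without single arrays. Between the genotypes 5 became 8 with all clusters and 3 to 49 without single arrays. For deficient against untreated cells 801 became 120 with the minimum fold, 208 without deficient replicates 1 and 2 and 98 to 1062 without single arrays.

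No clear pairing of the arrays by replicate number was seen, though with 3 arrays a group this check could not exclude one. Deviations from the group means correlated at -0.28 to 0.22 between same-numbered arrays, 6 of 18 such pairs were over 0.1, and 4 of 12 arrays correlated best with their own number. With 3 arrays a group, no untreated deficient group and no detection calls used here, small differences in these genes could not be resolved. With the block the fall of Cspg5 at 3 weeks had an adjusted p of 0.0682 and the rise of Ncl at 12 weeks one of 0.0580.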
